A study of Mus musculus with 4 samples.

Results

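The 9 genes described here encode the transcription factors that mark and drive the skeletal muscle lineage: the paired-box factors Pax7 and Pax3, the myogenic basic helix-loop-helix (bHLH) factors Myf5, Myod1, Myog and Myf6, and the MADS-box factors Mef2a, Mef2c and Mef2d. They were chosen by name, for their known role and with earlier results of these data known, from 20065 genes in the deposited table. All 9 were among the 16212 genes with enough reads to be tested. The cells were muscle stem cells (MuSC, or satellite cells) from limb and trunk muscles of adult C57BL/6 mice, cultured before their RNA was sequenced. The study asked which transcripts depend on Prmt5, an arginine methyltransferase that dimethylates histone and other proteins. There were 2 control and 2 Prmt5sKO libraries. The mutant cells were Pax7CreERT2/Prmt5loxP/loxP (+TAM), so that both copies of Prmt5 could be deleted by a tamoxifen-dependent Cre recombinase under the control of Pax7. The control cells, labelled wild type, were Pax7CreERT2/Prmt5+/loxP (+TAM), so they too carried the Cre allele, 1 floxed copy of Prmt5 and the drug. Pax7, a member of the group, is therefore also the locus that carried Cre in every library. The labels give tamoxifen without a route, whereas the methods describe adding its active form, 4-hydroxytamoxifen, to the cells. Nothing in the labels says that the 2 libraries of a group came from separate mice or cultures, so the p-values measure only the spread between these libraries.

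In satellite cells Pax7, and in some muscles also Pax3, marks the stem cell state. On activation the cells produce Myf5 and MyoD (encoded by Myod1), which pair with E proteins, bind the E-box sequence and commit the cell to the muscle lineage. Myogenin (Myog) and Myf6 act later, when cells leave the cycle and fuse, together with Mef2 proteins that bind AT-rich sites beside E-boxes in the promoters of contractile genes.

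The promoter of Myog is shown because Myog had the smallest p-value of the 9 genes. That of Mef2a is shown because it is the other member promoter with a match to CTATATTTA or to the MEF2 consensus. The sequences are RefSeq promoters on build GRCm38.p6, each with 250 bases before and 50 after the annotated start, printed 5′ to 3′ on the strand of the gene. Capitals mark E-box matches (CANNTG) and matches to CTATATTTA or to the MEF2 consensus, searched on both strands. The Myog promoter lay at chr1:134289754-134290053 on the plus strand and the Mef2a promoter at chr7:67372809-67373108 on the minus strand.
Myog: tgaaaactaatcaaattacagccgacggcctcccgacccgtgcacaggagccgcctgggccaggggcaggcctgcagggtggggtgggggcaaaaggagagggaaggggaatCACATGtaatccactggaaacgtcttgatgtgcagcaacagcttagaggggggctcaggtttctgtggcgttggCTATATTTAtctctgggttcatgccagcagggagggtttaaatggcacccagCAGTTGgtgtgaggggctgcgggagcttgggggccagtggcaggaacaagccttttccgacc
Mef2a: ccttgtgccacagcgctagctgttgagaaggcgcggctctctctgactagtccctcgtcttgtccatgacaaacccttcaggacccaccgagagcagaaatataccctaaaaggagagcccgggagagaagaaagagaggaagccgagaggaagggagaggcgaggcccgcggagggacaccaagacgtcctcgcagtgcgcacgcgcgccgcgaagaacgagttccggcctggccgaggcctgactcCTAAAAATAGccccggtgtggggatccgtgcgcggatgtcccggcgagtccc
In the Myog promoter, counted from the start site with negative positions before it, E-box letters stood from -138 to -133 (CACATG) and from -12 to -7 (CAGTTG), and CTATATTTA stood from -64 to -56. The Mef2a promoter held CTAAAAATAG across the start, from -2 to 8, and no E-box letters. RefSeq entries were found for 6 of the 9 members, 8 promoters in all since Mef2c had 3, and none for Pax3, Myod1 or Myf6. E-box letters were present in 3 of these 8 promoters, that of Myog and 2 of Mef2c, against 72.3% of 32851 RefSeq promoters of the same length. CTATATTTA occurred in 0.195% and the MEF2 consensus in 3.19% of all promoters. CTATATTTA was searched as these exact letters, and the Myog promoter held no match to the MEF2 consensus as searched. These matches describe the letters only.

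The recovered read counts summed to between 13240754 and 20047430 per library. The libraries of a group are called deeper and shallower by these totals, because the deposited columns are group means. Counts were scaled by trimmed mean of M-values (TMM) and are given as TMM-normalized counts. Throughout, pairs of values give the deeper library first. Prmt5 was measured at 2273 and 2906 normalized counts in control against 244 and 202 in Prmt5sKO. The libraries also differed within groups. Xist had 8668 and 5655 normalized counts in the deeper control and the shallower Prmt5sKO library, but 23.3 and 8.15 in the other two, so the 2 libraries of a group were not repeats of the same RNA. Between the Prmt5sKO libraries the median absolute log2 difference over all genes tested was 0.44, and 22.2% of genes differed by at least 1. Between the control libraries the corresponding values were 0.37 and 20.6%.

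Of the 9 factors, Myog and the 3 Mef2 genes were above both controls in each Prmt5sKO library, Myf5 was below both, and Pax7, Pax3, Myod1 and Myf6 overlapped between the groups. None of these differences passed the test. In bulk RNA, a different number of cells in a state and a different amount of RNA per cell cannot be told apart. With limma-voom and Benjamini-Hochberg adjustment, calls needed an adjusted p of 0.05 or less and a fold change of at least 2. This was reached by 0 of the 9 members and 0 of all genes (0%). The smallest adjusted p of any gene in this fit was 0.193, that of Prmt5, the deleted gene, at a log2 fold change of -3.52. Since the test did not call Prmt5 either, 0 calls among the members do not show that they were unchanged. Without adjustment, 2101 genes (13%) had a p under 0.05, 975 higher (6.01%) and 1126 lower (6.95%) in Prmt5sKO. Among the members this held for 1, Myog. The groups did not overlap for 4 members that were higher and 1 that was lower, against 25.2% of all genes higher, 23.6% lower and 48.8% in either direction. A fold change of at least 2 was seen for 2 members, Myog and Mef2c, and for 21.9% of all genes. The median log2 fold change of the members was 0.70, beside 0.02 over all genes tested. With 2 libraries against 2, an exact permutation test of a single gene cannot give a two-sided p below 0.333.

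**Figure D1:**
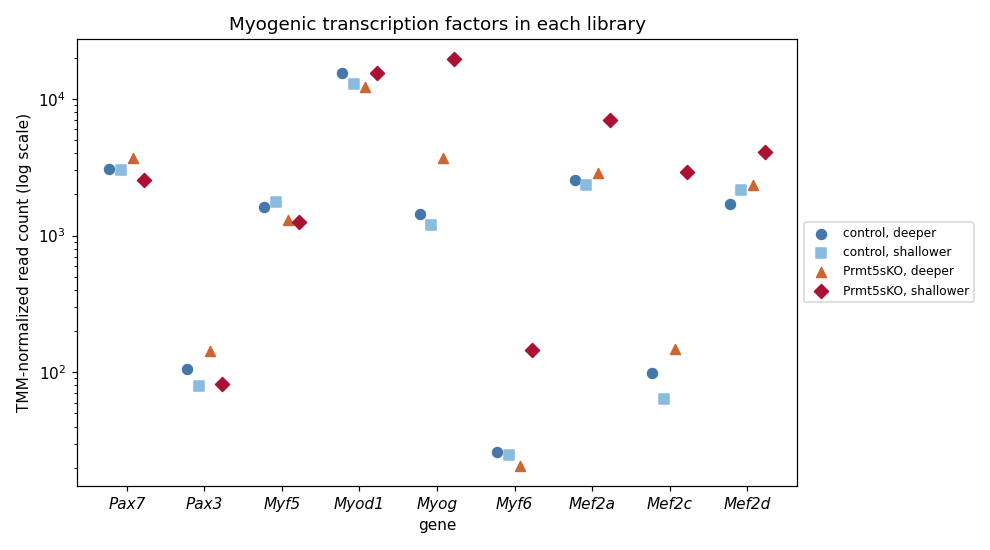
TMM-normalized read count (log scale) of each of the 9 transcription factors in the 2 control and 2 Prmt5sKO libraries, 1 point per library. Myod1 lies between 12153 and 15548 in every library, and the shallower Prmt5sKO library stands far above the other 3 for Myog, Myf6 and Mef2c.

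The paired-box genes overlapped between groups. Pax7 (ENSMUSG00000028736, chr4:139737062-139833528, minus strand, GRCm38), the factor that defines satellite cells, had 3079 and 3002 normalized counts in control and 3664 and 2570 in Prmt5sKO. Its mutant values thus lay on either side of both controls. The means were 3041 ± 54.6 in control and 3117 ± 774 in Prmt5sKO (SD, n = 2), and the log2 fold change was 0.01 with a standard error of 0.24 (limma-voom, adjusted p = 0.988). Pax3 (ENSMUSG00000004872, chr1:78101267-78197134, minus strand), which specifies muscle progenitors in the embryo, was much scarcer, at 105 and 79.1 in control and 143 and 82.5 in Prmt5sKO. Its log2 fold change was 0.28 with a standard error of 0.47 (limma-voom, adjusted p = 0.810). Within each library the Pax3 level per kilobase was between 0.0250 and 0.0370 of that of Pax7. Both genes were lower in the shallower than in the deeper Prmt5sKO library, by log2 differences of -0.51 for Pax7 and -0.79 for Pax3. This was the reverse of Myod1, Myog, Myf6 and the Mef2 genes.

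Among the early bHLH factors, Myf5 (ENSMUSG00000000435, chr10:107482908-107486134, minus strand), which acts with MyoD in committing cells to the lineage, had 1630 and 1772 normalized counts in control and 1305 and 1252 in Prmt5sKO. It was the only member lower in both Prmt5sKO libraries, and the 2 libraries of each group lay close together. Means were 1701 ± 100 and 1279 ± 37.8 (SD, n = 2), with a log2 fold change of -0.41, a standard error of 0.20 and an adjusted p of 0.424 in limma-voom. Leaving out any 1 library gave values from -0.48 to -0.34. Myod1 (ENSMUSG00000009471, chr7:46376474-46379099, plus strand) was the most abundant of the 9 genes in control cells, with 15445 and 12944 in control and 12153 and 15548 in Prmt5sKO. Library order was crossed and the groups overlapped. Its log2 fold change was -0.04 with a standard error of 0.24 (limma-voom, adjusted p = 0.958).

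Myog (ENSMUSG00000026459, chr1:134289989-134292548, plus strand), whose product is required for myoblasts to differentiate and fuse, had 1436 and 1189 normalized counts in control and 3707 and 19508 in Prmt5sKO. Both Prmt5sKO libraries were above both controls, but the shallower one was far above the deeper one. Relative to the control mean on the log2 scale, its level was higher by 1.50 in the deeper Prmt5sKO library and by 3.90 in the shallower one. The fitted log2 fold change was 2.72 with a standard error of 0.71 (limma-voom, adjusted p = 0.276). The shallower Prmt5sKO library minus the deeper one gave 2.40 on the log2 scale. This lay at the 96.4th percentile of the same signed difference over all genes tested. The size of the Myog difference therefore depended on the library: the fold change was 3.90 without the deeper Prmt5sKO library, which passed the threshold (limma-voom, adjusted p = 0.00112), and 1.50 without the shallower one, which did not (adjusted p = 0.0557). In these fits of 2 libraries against 1, the single library is assumed to vary like the controls.

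Myf6 (ENSMUSG00000035923, chr10:107492853-107494737, minus strand), the bHLH factor most associated with mature fibres, was the scarcest bHLH factor, with 19 to 144 reads per library. It had 26.0 and 24.6 normalized counts in control and 20.7 and 145 in Prmt5sKO. Only the shallower Prmt5sKO library stood out, and the deeper one lay below both controls. The log2 fold change was 0.95 with a standard error of 1.13 (limma-voom, adjusted p = 0.731), and its sign depended on the shallower library, being -0.30 without it and 2.49 without the deeper one.

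The Mef2 factors bind DNA beside the bHLH factors and act with them on contractile genes. Mef2a (ENSMUSG00000030557, chr7:67231163-67372858, minus strand) had 2558 and 2346 normalized counts in control and 2854 and 7031 in Prmt5sKO, and Mef2d (ENSMUSG00000001419, chr3:88142372-88172086, plus strand) had 1688 and 2164 in control and 2346 and 4066 in Prmt5sKO. In each case the shallower Prmt5sKO library was well above the other 3, while the deeper one lay only just above the higher control. The log2 fold changes were 0.88 with a standard error of 0.42 for Mef2a (limma-voom, adjusted p = 0.424) and 0.70 with a standard error of 0.31 for Mef2d (adjusted p = 0.408). Mef2c (ENSMUSG00000005583, chr13:83504034-83667080, plus strand), the Mef2 gene that is itself turned on during differentiation, had 99.4 and 63.5 in control and 147 and 2912 in Prmt5sKO. Its log2 fold change was the highest of the members, 2.91, but with a standard error of 2.08 (limma-voom, adjusted p = 0.566). The shallower Prmt5sKO library minus the deeper one gave 4.31 on the log2 scale, the 99.4th percentile of this signed difference over all genes tested. Annotated genes overlap Mef2a (Lysmd4 on the opposite strand, Gm44667 and Gm44668 on the same strand) and Mef2d (1700113A16Rik on the opposite strand), and the authors' counting left reads that overlapped several genes unassigned.

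**Figure D2:**
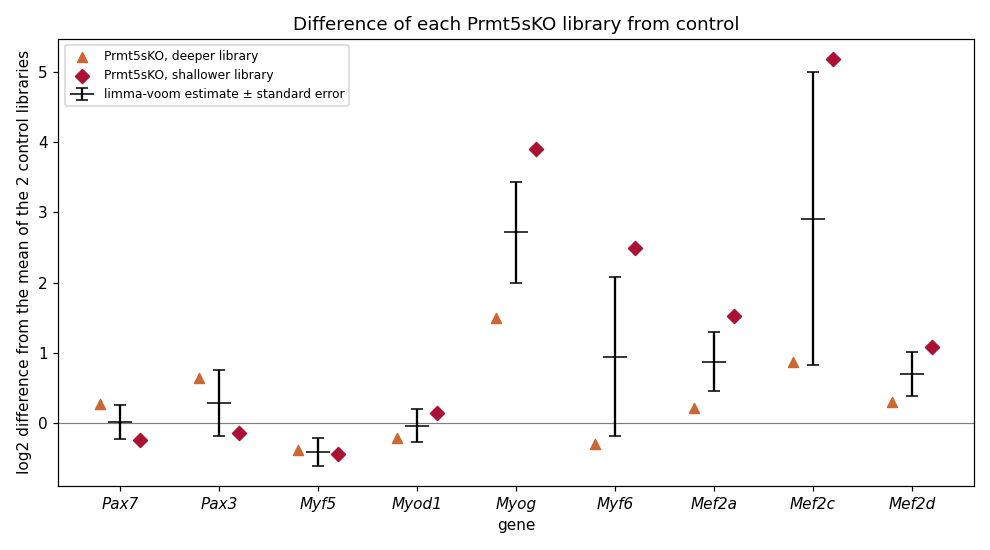
Log2 difference of the deeper (triangle) and shallower (diamond) Prmt5sKO library from the mean of the 2 control libraries for each gene, with the limma-voom estimate and its standard error as a bar. The shallower library reaches 5.18 for Mef2c and 3.90 for Myog, and the deeper library stays between -0.38 and 1.50.

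Leaving out libraries changed which members passed. Without the deeper Prmt5sKO library, 489 genes (3.07%) were called, among them 3 members, Myog at 3.90, Mef2c at 5.17 (limma-voom, adjusted p = 0.00137) and Mef2a at 1.52 (adjusted p = 0.0173), all higher. Mef2d then stood at 1.09 (adjusted p = 0.0698). Without the shallower Prmt5sKO library, 55 genes (0.342%) were called and 0 of them were members. The library totals that the study lists put the shallower library of each group as replicate 1. Neither the labels nor the methods state that libraries of the same number were paired. With a replicate block that pairs libraries by number, deeper with deeper, 0 genes were called. The opposite pairing, of unlike numbers, called 346 genes (2.13%), including 2 members, Myog (limma-voom, adjusted p = 0.0284) and Mef2c (adjusted p = 0.0305). This opposite pairing joins the libraries with high Xist to each other and those with low Xist to each other, and the part of that split in the calls was not tested. Over the 9 settings that kept all 4 libraries, 8 fitted with limma-voom, both pairings among them, and 1 with limma-trend, the adjusted p ran from 0.0284 to 0.294 for Myog, from 0.0305 to 0.586 for Mef2c, from 0.166 to 0.456 for Mef2a and from 0.241 to 0.441 for Mef2d. Of the 9 members, 6 had more counts in the shallower than in the deeper Prmt5sKO library, namely Myod1, Myog, Myf6 and the 3 Mef2 genes.

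Per kilobase of exon, the order of the levels in control libraries was Myod1 first at a mean of 7627, then Myog at 878 and Myf5 at 816, whose values overlapped. Pax7 followed at 519, Mef2d at 322 and Mef2a at 167, and the 3 scarce genes were Myf6 at 20.0, Pax3 at 14.9 and Mef2c at 5.19. All other neighbours in this order did not overlap between the 2 libraries. When the longest transcript was used in place of the union of exons, Mef2a at 443 moved above Mef2d at 357, and Pax3 and Myf6 overlapped. In Prmt5sKO, Myog had a mean of 7764 per kilobase but values of 2479 and 13049, which overlapped Myod1 at a mean of 7442. Then came Myf5 at 614, Mef2d at 536, Pax7 at 532 and Mef2a at 337, each overlapping the next, and Mef2c at 97.3, Myf6 at 65.5 and Pax3 at 18.2, which did so too. Only Myod1 against Myf5 and Mef2a against Mef2c were non-overlapping neighbours there. With the longest transcript, Mef2a at 892 moved above Myf5, whose values it overlapped.

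A share within a library does not depend on the scaling between libraries. Of the summed level per kilobase of the 4 bHLH genes, Myog made up 9.55% and 9.23% in control, 25.7% in the deeper Prmt5sKO library and 59.0% in the shallower one. Myod1 made up 82.5% and 80.7% in control and 67.7% and 37.8% in Prmt5sKO. For Myf5 the shares were 7.77% and 9.87% against 6.49% and 2.72%. Myog exceeded Myod1 in the shallower Prmt5sKO library, and in the other 3 libraries Myod1 was the most abundant bHLH transcript. As a share of reads before length correction, Myog accounted for 1271 of 16403 and 917 of 12283 bHLH reads in control (7.75%, Wilson 95% interval 7.35 to 8.17, and 7.47%, 7.01 to 7.94). In Prmt5sKO it accounted for 5003 of 23195 (21.6%, 21.0 to 22.1) and 19398 of 36247 (53.5%, 53.0 to 54.0). These intervals cover counting error only.

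**Figure D3:**
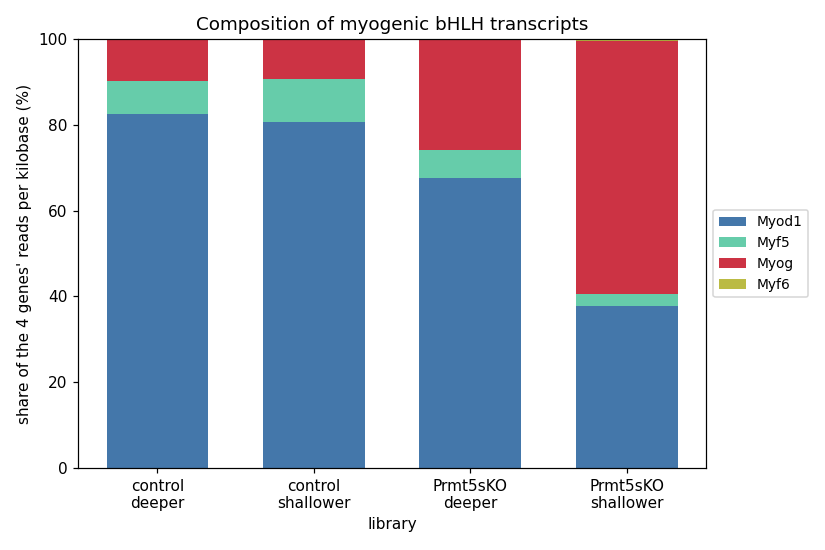
Share (%) of Myod1, Myf5, Myog and Myf6 in the sum of their levels per kilobase, 1 stacked bar per library. Myog takes 9.55% and 9.23% in the control libraries, then 25.7% in the deeper Prmt5sKO library and 59.0% in the shallower one.

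The ratio of Myog to Myod1 per kilobase was 0.116 and 0.114 in control and 0.380 and 1.56 in Prmt5sKO, and that of Myog to Pax7 was 1.83 and 1.55 against 3.97 and 29.8. Both ratios were higher in each Prmt5sKO library than in each control. The ratio of Mef2c to Mef2a was 0.0363 and 0.0253 in control and 0.0480 and 0.387 in Prmt5sKO. Mef2d to Mef2a, at 1.62 and 2.26 against 2.02 and 1.42, and Myf5 to Myod1, at 0.0943 and 0.122 against 0.0960 and 0.0719, overlapped between the groups.

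For the 3 members whose log2 counts spanned at least 2 over the libraries, the genes with the most similar profile over the 4 libraries were listed by Euclidean distance of centred log2 counts. Nearest to Myog were Art1 at a distance of 0.160, Hspb3 at 0.173, Sel1l3 at 0.287, Adora1 at 0.336 and Cav3, a caveolin of muscle membranes, at 0.425. Nearest to Myf6 were Ryr1, the calcium release channel of the sarcoplasmic reticulum, at 0.305, then Prob1 at 0.328, Chrng at 0.346, Dusp8 at 0.351 and Fhod3 at 0.365. The profiles nearest to Mef2c were those of the contractile genes Myl1 at 0.259, Myh3 at 0.364 and Mylpf at 0.401, the sodium channel gene Scn4a at 0.342 and the small heat shock gene Hspb7 at 0.381. With 4 libraries such distances only describe these libraries.

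The E proteins, which pair with the myogenic bHLH factors, did not move one way. Tcf3 had 3456 and 3170 normalized counts in control and 2634 and 2377 in Prmt5sKO, a log2 fold change of -0.40, whereas Tcf4 was at 0.46 and Tcf12 at 0.36. None of the 3 overlapped between groups, beside 48.8% of all genes without overlap, and 0 had an unadjusted p under 0.05. The 4 Id genes, whose products sequester E proteins, all overlapped, at -0.37 for Id1, 0.14 for Id2, 0.04 for Id3 and -0.30 for Id4, a median log2 fold change of -0.13. Among 14 other repressors of bHLH activity tested, 2 had an unadjusted p under 0.05 and both were higher, Zeb1 at 1.12 and Mdfi, an inhibitor of MyoD-family factors, at 1.22. In this list 5 genes were higher without overlap, 1 lower and 8 overlapped, and the median was 0.35. Over all genes, 25.2% were higher and 23.6% lower without overlap, and 6.01% were higher at an unadjusted p under 0.05. Heyl, a Notch target, had 18.1 and 16.9 in control and 154 and 924 in Prmt5sKO, at 4.28. Bhlhe40 stood at 1.20, with 0.47 when the deeper Prmt5sKO library was left out.

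Among 13 coactivators and chromatin cofactors the median log2 fold change was -0.32. An unadjusted p under 0.05 was found for 0 higher and 4 lower genes, beside 6.95% lower over all genes. Carm1, another arginine methyltransferase and a coactivator of Mef2 and the bHLH factors, had 1957 and 1952 normalized counts in control and 859 and 1095 in Prmt5sKO, a log2 fold change of -1.01 with a standard error of 0.22 (limma-voom, adjusted p = 0.240). Wdr5 at -0.84 and Ash2l at -0.58, both subunits of histone H3 methyltransferase complexes, and the acetyltransferase gene Kat2a at -0.53 were the other 3. Smyd1 overlapped, at 0.77. Of the 7 histone deacetylases that act on Mef2 or MyoD, 3 were higher and 3 lower without overlap, beside 25.2% and 23.6% of all genes. In this list 0 had an unadjusted p under 0.05. Hdac7 stood at -0.45, Hdac4 at -0.33, Hdac3 at -0.31 and Hdac5 at 0.46. Hdac9, named after its value was seen, had 10.2 and 0 normalized counts in control and 21.5 and 102 in Prmt5sKO.

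Of 14 upstream homeobox factors and Eya cofactors tested, 2 were higher and 4 lower without overlap, beside 25.2% and 23.6% of all genes. Of the 14, 0 had an unadjusted p under 0.05, and their median was 0.19. Among those with a mean of at least 50 normalized counts, the leading genes by size of difference were Eya2 at 0.98, Six2 at -0.69, Pitx3 at -0.55 and Eya1 at -0.52. Eya2 overlapped between groups, and its log2 fold change was 0.07 without the deeper control and 1.79 without the shallower one. The corresponding values were -1.23 and -0.20 for Six2, -0.10 and -0.98 for Pitx3, and -0.72 and -0.35 for Eya1. Msx2, at 1.12, had a mean of only 8.21. Among 19 transcription factors and other regulators that work beside the members, the median was 0.22. An unadjusted p under 0.05 was found for 3 higher and 1 lower gene, beside 6.01% and 6.95% of all genes. Sox8 had 70.1 and 148 normalized counts in control and 539 and 366 in Prmt5sKO, at 2.16. Vgll3 stood at 0.90, Nfatc2 at 2.44 and Tead2, a factor of the Hippo pathway, at -0.87, or -0.41 without the deeper Prmt5sKO library. Ankrd2, at 1.78, was high in the shallower Prmt5sKO library alone.

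**Figure D4:**
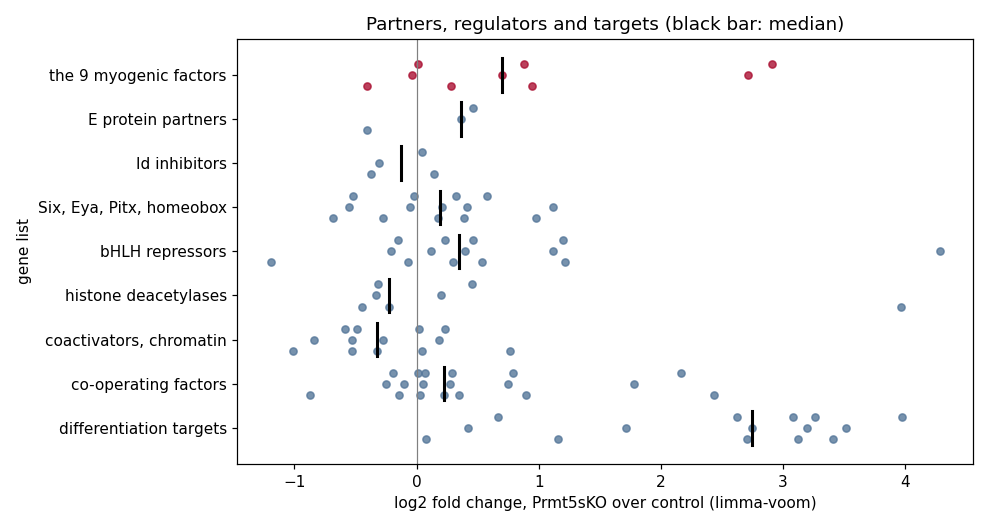
Log2 fold change (Prmt5sKO over control) of each gene in the lists of partners, inhibitors, cofactors and targets, with 1 point per gene and a black bar at the median of each list. The median of the differentiation targets, 2.75, is the highest of the lists drawn, beside -0.32 for the coactivators and 0.70 for the 9 members.

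The genes that these factors switch on in differentiation were measured from a list of 15. Of these, 12 were higher and 0 lower without overlap, beside 25.2% and 23.6% of all genes, and 3 overlapped. An unadjusted p under 0.05 was found for 2 targets, both higher, beside 6.01% higher over all genes. The median log2 fold change of the 15 targets was 2.75, with 0 called. This list, like the others, was chosen with earlier results of these data known, so its counts are descriptive only. Acta1, skeletal alpha-actin, had 2366 and 1001 normalized counts in control and 4951 and 60227 in Prmt5sKO, and Mylpf, a fast myosin light chain, had 1771 and 855 against 2855 and 47465. Both genes, at 3.51 and 3.26, had an unadjusted p under 0.05. Ckm, muscle creatine kinase, stood at 3.97 and Casq2, a calcium-binding protein of the sarcoplasmic reticulum, at 3.41. All 15 targets were higher in the shallower than in the deeper Prmt5sKO library, with a median log2 difference of 3.60. The list median was 4.57 without the deeper and 0.82 without the shallower Prmt5sKO library.

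**Figure D5:**
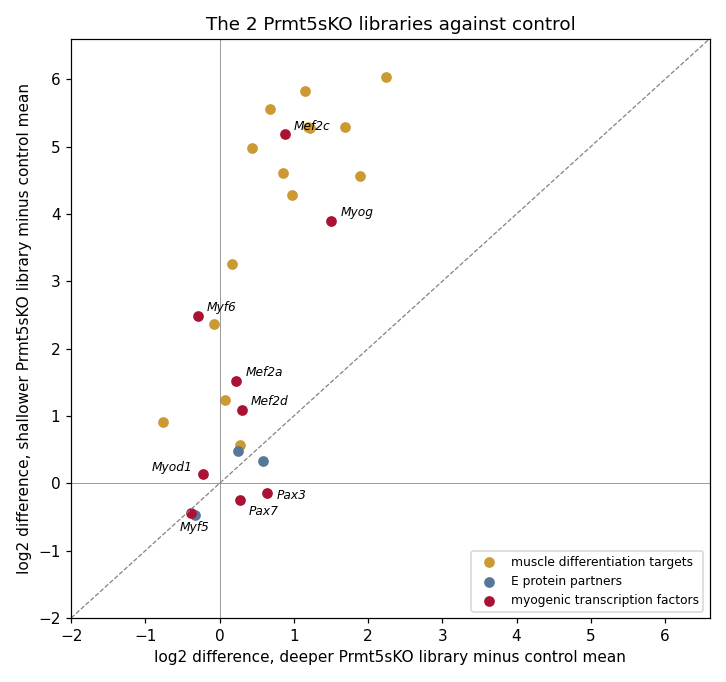
Log2 difference from the control mean in the deeper Prmt5sKO library (horizontal axis) and in the shallower one (vertical axis), 1 point per gene, for the 9 myogenic factors, the 3 E proteins and the 15 differentiation targets, with a dashed line where both libraries would be equal. All 15 targets lie above the line, as do Myog (1.50 and 3.90) and Mef2c (0.88 and 5.18), while Pax7 and Pax3 lie below it.

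Markers of other cell types were summed as a check of the label. Satellite cell markers, of which 10 were tested, summed to between 29116 and 61635 normalized counts. Of the 10, 5 were higher without overlap, beside 25.2% of all genes, and 5 overlapped (median log2 fold change 0.64). Their most abundant genes per kilobase were Des, Sdc4 and Itga7. Des and Cdh15 are also among the differentiation targets and Heyl among the repressors. Among the satellite cell markers an unadjusted p under 0.05 was found for 3, Cd34 at 2.32, Cxcr4 at 0.88 and Spry1 at 1.04, beside 6.01% higher over all genes. The methods describe sorting either with antibodies, which include Cd34 and Cxcr4, or by a fluorescent reporter. They do not say which was used for these cells. Cd34 had 220 and 24.6 normalized counts in control, and its log2 fold change was 3.93 without the deeper control and 0.83 without the shallower one. The corresponding values were 1.34 and 0.44 for Cxcr4 and 1.51 and 0.61 for Spry1. Smooth muscle and pericyte markers summed to 4084 and 2284 in control and 6345 and 10950 in Prmt5sKO. Of these, 4 of 5 were higher without overlap, beside 25.2% of all genes. They were Notch3 at 1.87, Rgs5 at 2.65, Abcc9 at 3.19 and Cspg4 at 0.41. Myh11, the defining smooth muscle gene, was at 6.67 to 10.2 in every library. Rgs5 had 1774 and 128 in control and 2367 and 4163 in Prmt5sKO, and its log2 fold change was 4.60 without the deeper control and 0.84 without the shallower one. The fibro-adipogenic markers ranged from 137 to 511 in sum, the endothelial from 119 to 206 and the haematopoietic from 68.2 to 144. Their median log2 fold changes were -0.98, -0.29 and -0.63, over 7, 4 and 4 genes tested. In the fibro-adipogenic list 0 genes were higher and 1 was lower without overlap. Of the 4 endothelial markers tested, 2 were higher and 2 lower without overlap, beside 25.2% and 23.6% of all genes. Their log2 fold changes ran from -1.78 to 0.94. Kdr, an endothelial receptor gene named after its value was seen, was the only endothelial marker with an unadjusted p under 0.05, at -1.78. Against the median of the fibro-adipogenic list, Col15a1 stood at 1.38, with 345 normalized counts in the shallower Prmt5sKO library and 3.70 to 15.6 in the others. Thy1, of the same list, was at 0.31, and the macrophage gene Cd68 was at -0.99. Of the 4 haematopoietic markers tested, 0 were higher and 1 was lower without overlap, and 3 overlapped. Their log2 fold changes ran from -1.33 to 2.21. By mean level per kilobase the most abundant genes of these 3 lists were Thy1, Tek and Cd68. Lum was at 0 in 3 libraries and Lyz2 in 2. The part that the pericyte-type genes or the difference between the Prmt5sKO libraries has in the values of the 9 factors was not tested.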

How the data were processed

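RNA of 4 libraries of cultured MuSC was depleted of ribosomal RNA and sequenced. Per the labels and methods the authors aligned reads with STAR 2.4.0a to GRCm38 and used DESeq2 1.62. The authors deposited, as signal values, group means of size-factor-normalized counts. The deposited table also holds the authors' log2 fold change of wild type over mutant, its standard error, p-value and adjusted p-value, which were not used. Each group mean is built from 2 step sizes, 1 per library, from which whole counts per library were recovered for 100% of 20065 genes in both groups. Size factors computed from the recovered counts matched the steps, and on simulated data all counts came back exactly. Counts were scaled by TMM (own code, trims of 30% and 5%) and compared by limma-voom (limma 3.58.1, R 4.3.3), with a mean of at least 5 normalized counts and Benjamini-Hochberg adjustment over 16212 genes, with calls at an adjusted p of 0.05 or less and a fold change of 2 or more. Fold changes are Prmt5sKO over control on the log2 scale. In simulated counts with 200 genes changed 3-fold at a dispersion of 0.03, the fit recovered 195 and called 3 unchanged genes of 16203. That dispersion was set and not estimated from these libraries, so the share recovered does not give the power of the real comparison. With the real libraries the fit did not call Prmt5, at a log2 fold change of -3.52 (limma-voom, adjusted p = 0.193). Levels per kilobase used the union of exons in GENCODE M21, which held 19782 of the identifiers. Named genes were all members, up to 4 examples per list with the largest absolute fold change at a mean of at least 50 normalized counts, the most abundant markers, and the 5 most similar profiles for members spanning at least 2. The members and lists were chosen with earlier results of these data known, and genes outside this rule (Kat2a, Nfatc2, Kdr, Hdac9) after their values were seen. Alternatives were other scalings, filters and tests, both replicate pairings, another gene length and leaving out each library.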

Additional observations from a re-analysis of the deposited data

How the results depend on the processing

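No member was called under scaling by library size, upper quartile or the authors' size factors, without a filter or with a mean of at least 50 normalized counts, or with limma-trend, and 0 genes were called in each. The median log2 fold change of all genes was 0.13 under library size only. Signs turned for Myod1 at 0.067 under library size only and for Pax7 at -0.0054 under upper quartile. The replicate block with the deeper libraries paired, which joins libraries of the same number, called 0 genes (Myog at 2.72). Under this pairing the deeper-minus-shallower differences of control and Prmt5sKO had a Pearson correlation of -0.17 over 16212 genes, and the crossed replicate block called 346 genes, with Myog at 2.74 and Mef2c at 3.99. Leaving out each library in turn gave 0 to 489 genes called and 5 to 9 members without overlap (8 without the deeper and 9 without the shallower Prmt5sKO library, beside 78% and 75% of all genes), the latter alternative chosen after seeing the data. The log2 fold changes then ran from -0.24 to 0.27 for Pax7, -0.16 to 0.63 for Pax3, -0.48 to -0.34 for Myf5, -0.22 to 0.14 for Myod1, 1.50 to 3.90 for Myog, -0.30 to 2.49 for Myf6, 0.22 to 1.52 for Mef2a, 0.86 to 5.17 for Mef2c and 0.30 to 1.09 for Mef2d. Myod1 turned to 0.08 without the deeper control and to 0.14 without the deeper Prmt5sKO library, Pax7 to -0.0031 without the shallower control, and 55 genes were called without the shallower Prmt5sKO library. The cause of these moves was not tested.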
